A study of Mus musculus with 12 samples.

Results

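The nucleus encodes most subunits of the mitochondrial respiratory chain and the ATP synthase, and 91 such genes were followed here among 24411 genes listed. They are the genes whose symbol begins with Nduf, Sdha to Sdhd, Uqcr, Cox4 to Cox8 or Atp5, and whose level averaged at least 1 TPM (transcripts per 1000000, corrected for transcript length) over 12 mouse RNA-seq libraries. The symbols match 96 genes, and 5 fell under that level. The 91 comprise 36 complex I subunits and 7 complex I assembly factors (Ndufaf), 4 complex II subunits and 4 complex II assembly factors (Sdhaf), 8 complex III subunits, 15 complex IV subunits, 15 ATP synthase (complex V) subunits, and Atp5s and Atp5sl, 2 genes that carry the ATP synthase name without being core subunits. Ndufa4, named for complex I, is counted with complex IV, where its protein is now placed. Just inside the level were Cox4i2 with a mean of 1.21 TPM and Cox7a1 with 1.48 TPM, and just outside it was Cox6a2 with 0.394 TPM. Cox7b2, Cox8b, Cox8c and Ndufa4l2 lay lower still.

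The libraries came from lineage-negative, cKit-positive cells, the marrow fraction of stem and progenitor cells, from femora and tibiae of C57BL/6 mice. Recipients were irradiated CD45.1 animals that had received CD45.2 donor marrow mixed with wild-type CD45.1 support marrow, and donors carried 1 of 4 genotypes with 3 libraries each. The double group had Mx1-Cre with both Inv(3) and heterozygous Sf3b1-K700E, the inv(3) group had Mx1-Cre with Inv(3), the Sf3b1 K700E group had Mx1-Cre with heterozygous Sf3b1-K700E, and the control group had Mx1-Cre alone. In human leukemia inv(3) moves an enhancer of GATA2 next to EVI1 (Mecom in the mouse), and Sf3b1 encodes a core splicing factor. All 4 groups, controls included, were given 3 doses of pIpC at 20 mg/kg starting 4 weeks after transplantation, and marrow was taken 6 months after the pIpC. Mx1-Cre answers to the interferon that pIpC induces, and it acts in blood cells and in other tissues. The sources used here do not say how the mouse Inv(3) allele was built, how old the mice were, whether donor cells were separated from recipient and support cells, or whether replicates are separate mice, so p-values measure only the spread between these samples.

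Complexes I and II pass electrons from NADH and succinate to ubiquinone, complex III passes them on to cytochrome c, and complex IV hands them to oxygen. Complexes I, III and IV pump protons across the inner mitochondrial membrane, and complex V uses the returning protons to make ATP. Blood stem cells are known to rely largely on glycolysis and to raise oxidative phosphorylation as they differentiate. Mitochondrial DNA encodes the remaining subunits, and 0 of its genes are in the tables, so only the nuclear share is described.

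Library totals lay between 73074797 and 86555638 expected counts, and 13755 genes, all 91 among them, were tested. Summed Y-linked reads were 0.0493 to 0.11 CPM (counts per 1000000, scaled by TMM) in the inv(3) libraries and 232 to 307 CPM in the other 9. The labels give no sex. In inv(3) over control, in double over inv(3) and in the interaction tested below, the Y-linked difference cannot be told apart from the genotype. Double over Sf3b1 K700E has Y-linked RNA on both sides. Xist, the RNA of the inactive X chromosome, stood at 23.2 to 40.5 in the double group, 1794 to 2095 with inv(3) alone, 77.1 to 209.7 with Sf3b1 K700E alone and 23.99 to 39.9 in control, all in CPM. Summed markers of other cells also differed between groups, and not always with inv(3). Summed over 12 macrophage markers, CPM was 78.1 to 99.7 in the double group, 90.9 to 140.1 with inv(3) alone, 496 to 710.4 with Sf3b1 K700E alone and 368 to 447 in control. Over 12 erythroid markers it was 387 to 453 in the double group, 354 to 472 with inv(3) alone, 1093 to 1215 with Sf3b1 K700E alone and 889.9 to 955 in control, and the 11 mast cell, basophil and eosinophil markers and the 7 megakaryocyte markers were likewise lower in both groups with inv(3). Over 11 neutrophil markers it was 32500 to 37380 in the double group and 43630 to 46000 with inv(3) alone. It was 22040 to 26220 with Sf3b1 K700E alone and 33900 to 36740 in control, so the sums of double and control overlapped. Over 10 B-lymphoid markers it was 32.6 to 33.6 in the double group and 26.5 to 33.6 with inv(3) alone. It was 26.9 to 28.5 with Sf3b1 K700E alone and 24.4 to 26.2 in control. Over 7 T and NK cell markers it reached at most 3.82 in any library. Over the 8 stem and progenitor markers that fit the gate it was 2045 to 2113 in the double group, 2008 to 2065 with inv(3) alone, 2215 to 2228 with Sf3b1 K700E alone and 2191 to 2248 in control. These sums hide larger changes of single markers. By the edgeR test used below, 5 of the 8 fell and 1 rose in inv(3) over control, with a median log2 fold change of -0.535. In double over inv(3) 0 fell and 3 rose, with a median of 0.414. In double over Sf3b1 K700E 4 fell and 1 rose (median -0.464), and in double over control 3 fell and 1 rose (-0.227). Of 9 B-lymphoid markers tested, 8 fell and 1 rose in double over Sf3b1 K700E (median -1.949), although the sum over all 10 was higher. In inv(3) over control 4 fell and 1 rose (-0.759), and in Sf3b1 K700E over control 0 fell and 5 rose (1.603). Of the 11 neutrophil markers 7 rose in inv(3) over control (1.238) and 6 in double over Sf3b1 K700E (0.578), and 0 fell. In double over control 1 fell and 4 rose (0.722). Shares of all genes that passed are given below. Of these lists no marker was at 0 in all libraries. The part of these cells in the results was not tested, and in bulk samples fewer cells of a type and less RNA per cell cannot be told apart.

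Promoters are shown for 6 genes that stand for the main patterns. Sdha, Uqcrfs1 and Cox5a were lower wherever inv(3) was present, Ndufaf4 and Ndufv3 moved in opposite directions to each other under each allele alone, and Cox6b2 was higher with inv(3). Each line gives the 150 bases before the RefSeq start site (GRCm38.p6), 5′ to 3′, with matches to 5 motifs in capitals. The motifs, searched on both strands, were the NRF1 site GCGCANGCG, whose matches on the 2 strands can overlap, the GABPA/ETS site CCGGAAG, the YY1 site AAGATGGCG, the E-box CACGTG and the cyclic AMP response element (CRE) TGACGTCA.
Sdha (chr13:74350241-74350390, minus strand): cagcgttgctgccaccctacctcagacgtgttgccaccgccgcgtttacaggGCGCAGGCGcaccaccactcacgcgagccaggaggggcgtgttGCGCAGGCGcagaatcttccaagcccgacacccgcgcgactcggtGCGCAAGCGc
Uqcrfs1 (chr13:30545317-30545466, minus strand): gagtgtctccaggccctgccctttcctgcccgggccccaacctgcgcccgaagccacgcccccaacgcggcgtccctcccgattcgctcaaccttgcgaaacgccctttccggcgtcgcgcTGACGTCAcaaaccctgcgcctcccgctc
Cox5a (chr9:57521082-57521231, plus strand): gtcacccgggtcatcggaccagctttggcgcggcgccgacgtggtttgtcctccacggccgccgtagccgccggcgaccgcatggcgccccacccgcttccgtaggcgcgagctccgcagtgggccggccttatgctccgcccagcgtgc
Ndufaf4 (chr4:24897933-24898082, plus strand): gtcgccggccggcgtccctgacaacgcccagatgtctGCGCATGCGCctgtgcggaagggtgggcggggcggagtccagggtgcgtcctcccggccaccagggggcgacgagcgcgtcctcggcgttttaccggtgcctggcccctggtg
Ndufv3 (chr17:31519965-31520114, plus strand): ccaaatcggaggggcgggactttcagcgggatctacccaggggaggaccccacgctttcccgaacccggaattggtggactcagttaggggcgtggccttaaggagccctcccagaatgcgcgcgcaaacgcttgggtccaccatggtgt
Cox6b2 (chr7:4753095-4753244, minus strand): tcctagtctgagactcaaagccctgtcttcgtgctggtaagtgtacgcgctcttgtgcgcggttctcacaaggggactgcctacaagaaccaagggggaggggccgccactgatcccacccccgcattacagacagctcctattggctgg
NRF1 matches stand in the Sdha and Ndufaf4 windows and a CRE match in that of Uqcrfs1. The windows of Cox5a, Ndufv3 and Cox6b2 hold none of the letters searched.

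RefSeq promoters of 300 bases, 250 of them before the start site, were at hand for 78 of the 91 genes. Of these, 24 (30.8%) held an NRF1 match, against 9.63% of 17492 genes, and 20 (25.6%) held a GABPA/ETS match, against 12.9%. The 17492 are all protein-coding genes with such a promoter, expressed here or not, while the 78 all averaged at least 1 TPM. YY1 matches stood in 10.3% against 2.14%, CRE matches in 5.13% against 2.54%, and E-boxes in 8.97% against 8.91%. Of the 14 with a promoter that fell with inv(3) on both backgrounds, 5 held an NRF1 match and 1 a GABPA/ETS match. Of the 32 with a promoter that passed in no comparison, 12 held an NRF1 match and 11 a GABPA/ETS match. A match describes letters and not a bound site.

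Levels differed widely between genes. The median of the mean TPM was 480 for complex V, 434 for complex IV, 280 for complex III, 186 for complex II and 162 for complex I subunits, against 18.5 for complex I and 24.8 for complex II assembly factors. Atp5b, the catalytic beta subunit of the ATP synthase, was highest of all at 1060 TPM, and Atp5d, the delta subunit of its central stalk, was the lowest of complex V at 206 TPM. In complex IV, Ndufa4 was highest at 836 TPM. The accessory subunits Ndufa3 and Ndufa11 marked the ends of complex I at 553 and 22.3 TPM. Uqcrb was highest in complex III at 552 TPM and the Rieske iron-sulfur protein Uqcrfs1 lowest at 119 TPM, and in complex II the membrane anchor Sdhd was highest at 243 TPM and the iron-sulfur subunit Sdhb lowest at 120 TPM. The coefficient of variation inside groups, averaged over the 4 groups for each gene, had a median of 4.33% over the 91 genes and ran between 1.07% and 24.6%.

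Cox4i2 and Cox7a1, forms of complex IV subunits known from certain tissues, gave under 1% of their families in each group. Cox4i2, the form of subunit 4 known from lung, gave 0.189% ± 0.037 in the double group, 0.148% ± 0.032 in inv(3), 0.23% ± 0.048 in Sf3b1 K700E and 0.159% ± 0.026 in control of the summed TPM of Cox4i1 and Cox4i2 (SD, n = 3 each, as for all shares). The heart and muscle form Cox7a1 gave 0.293% ± 0.11 in the double group, 0.158% ± 0.0027 in inv(3), 0.274% ± 0.035 in Sf3b1 K700E and 0.229% ± 0.094 in control of the Cox7a family. Cox7a2l, a factor of supercomplex assembly, gave 58.5% ± 2.5 in the double group, 54.0% ± 0.66 in inv(3), 55.0% ± 0.74 in Sf3b1 K700E and 53.8% ± 0.77 in control, with Cox7a2 giving nearly all that remained. None of these isoform shares was tested.

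The summed level of the 91 genes was lower in both groups with inv(3). It was 22659, 22587 and 21813 TPM in the double group, 22848, 22619 and 23104 TPM in inv(3), 26000, 25789 and 24988 TPM in Sf3b1 K700E, and 25003, 25523 and 25593 TPM in control. The 6 libraries with inv(3) lay below the 6 without it. Group means were 88.1% of control in the double group, 90.1% in inv(3) and 101% in Sf3b1 K700E. On the TMM-scaled CPM used for the tests these shares were 88.8%, 93.7% and 97.3%, so the gaps of the double and inv(3) groups to control were narrower on that scale, while Sf3b1 K700E lay above control in TPM and below it in CPM. None of these sums was tested. By complex, the summed CPM of the double group was 91.6% of control for complex I, 86.3% for II, 89.9% for III, 89.1% for IV and 87% for V. In inv(3) it was 99.9% for complex I, 86.1% for II, 96.2% for III, 94.5% for IV and 90.5% for V.

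**Figure D1:**
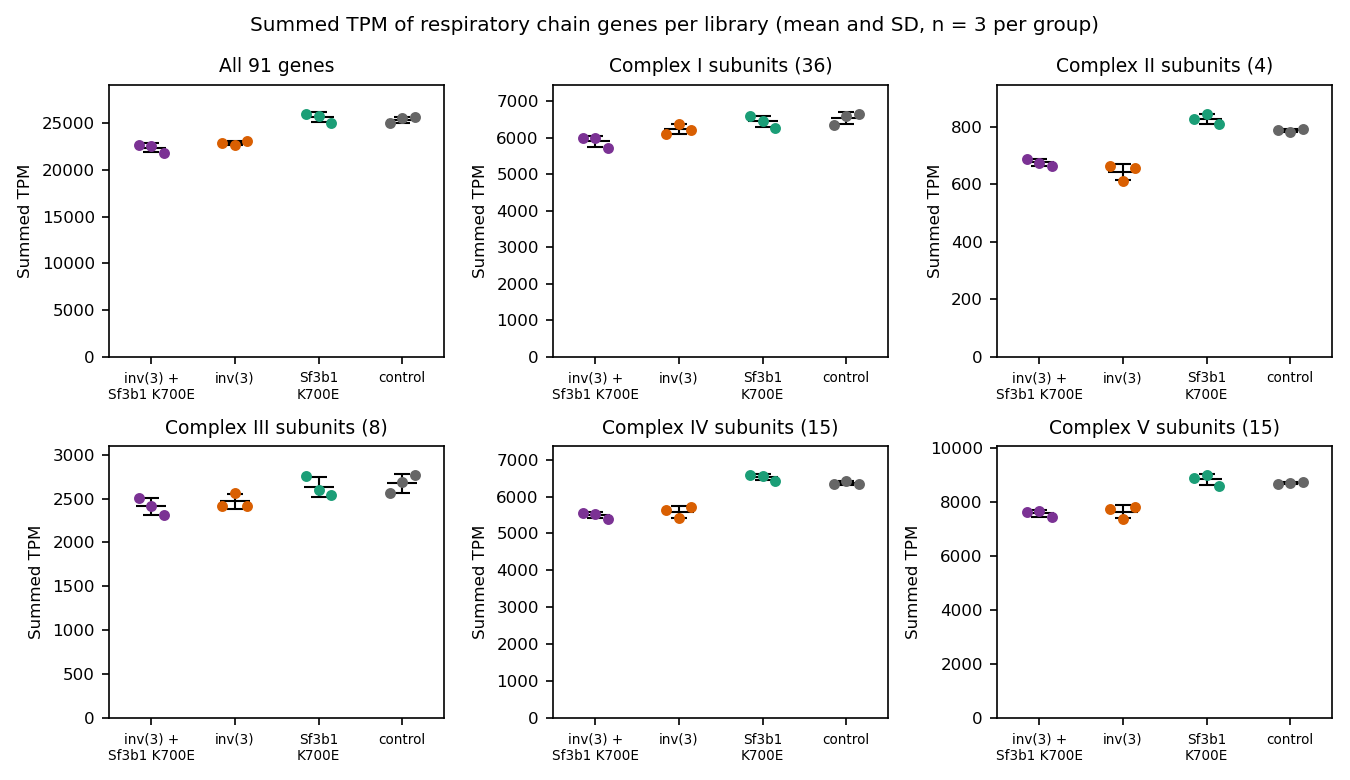
Summed TPM (y axes, from 0) of all 91 genes and of the subunits of complexes I to V in each of 12 libraries, with group means and SDs as black marks (n = 3 per group); inv(3) + Sf3b1 K700E is the double group. For all genes the double and inv(3) libraries lie between 21813 and 23104 TPM, below Sf3b1 K700E and control libraries at 24988 to 26000 TPM.

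Single genes were tested for each allele, alone and on the background of the other (edgeR quasi-likelihood test, Benjamini-Hochberg adjusted p under 0.05 over all genes tested, log2 fold changes ± SE, n = 3 per group). In double over control, 35 of the 91 genes fell and 1 rose (38.5% and 1.1%), while 20.4% of all genes fell and 20.8% rose. In double over Sf3b1 K700E, 32 fell and 4 rose (35.2% and 4.4%), against 23.5% and 25.7% of all genes. In inv(3) over control, 19 fell and 6 rose (20.9% and 6.59%), against 20.3% and 18.4%, so the share that fell was near the background. Median log2 fold changes of the 91 were -0.12 in double over control, -0.097 in double over Sf3b1 K700E and -0.026 in inv(3) over control, against 0.002, 0.025 and 0.003 over all genes, so most shifts were small.

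Among genes with a mean of at least 5 CPM, the background of falls was 19.6% in double over control, 25.4% in double over Sf3b1 K700E, 18.1% in inv(3) over control, 11.1% in double over inv(3) and 4.55% in Sf3b1 K700E over control. All libraries lay below those of the other group for 50 of the 91 genes, and above for 1, in double over control (background 27.5% and 27.3%). The numbers were 42 and 4 in double over Sf3b1 K700E (28.0% and 29.6%), and 33 and 9 in inv(3) over control (26.9% and 24.9%). The 6 rises in inv(3) over control became 3 without control replicate 1, 2 without control replicate 2, 3 without control replicate 3 and 2 without inv(3) replicate 2. The 4 rises in double over Sf3b1 K700E became 10 without Sf3b1 K700E replicate 1, and 2 without any 1 of Sf3b1 K700E replicates 2 and 3, double replicates 1, 2 and 3, inv(3) replicate 3 or control replicates 2 and 3.

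Adding Sf3b1 K700E to inv(3) gave fewer calls. In double over inv(3), 15 of the 91 fell and 1 rose (16.5% and 1.1%), against 9.13% and 13.4% of all genes, with a median of -0.093 against 0.003. All double libraries lay below those of inv(3) for 32 genes and above for 3 (background 17.6% and 21.9%). The 15 became 7 without control replicate 2, 6 without inv(3) replicate 2, 6 without inv(3) replicate 3, 4 without double replicate 1 and 2 without double replicate 3, and the 1 rise became 0 without inv(3) replicate 3, double replicate 1 or double replicate 2. Sf3b1 K700E over control gave 3 falls and 1 rise (3.3% and 1.1%), near the background of 4.9% and 3.94%. The 3 became 0 without Sf3b1 K700E replicate 2 or control replicate 2, 1 without Sf3b1 K700E replicate 3 or control replicate 3, and 7 without Sf3b1 K700E replicate 1, and the rise became 0 without control replicate 2. All libraries lay below control for 11 genes and above it for 6 in that comparison (15.8% and 17.7%).

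Whether both alleles together differ from the sum of each was tested as an interaction. This test includes the group low in Y-linked reads, so that difference and the genotypes cannot be told apart in it. Of 5 sex-linked genes, 4 were higher and 1 was lower in the interaction, with a median log2 value of 11.028. By edgeR 0 of the 91 passed (lowest adjusted p = 0.176), where 0.4% of all genes were higher and 0.436% lower, and 6 of the 91 had an unadjusted p under 0.05. DESeq2 also called 0, with 13 at an unadjusted p under 0.05. Over the 5 comparisons of groups and the interaction, 38 of the 91 passed in none.

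**Figure D2:**
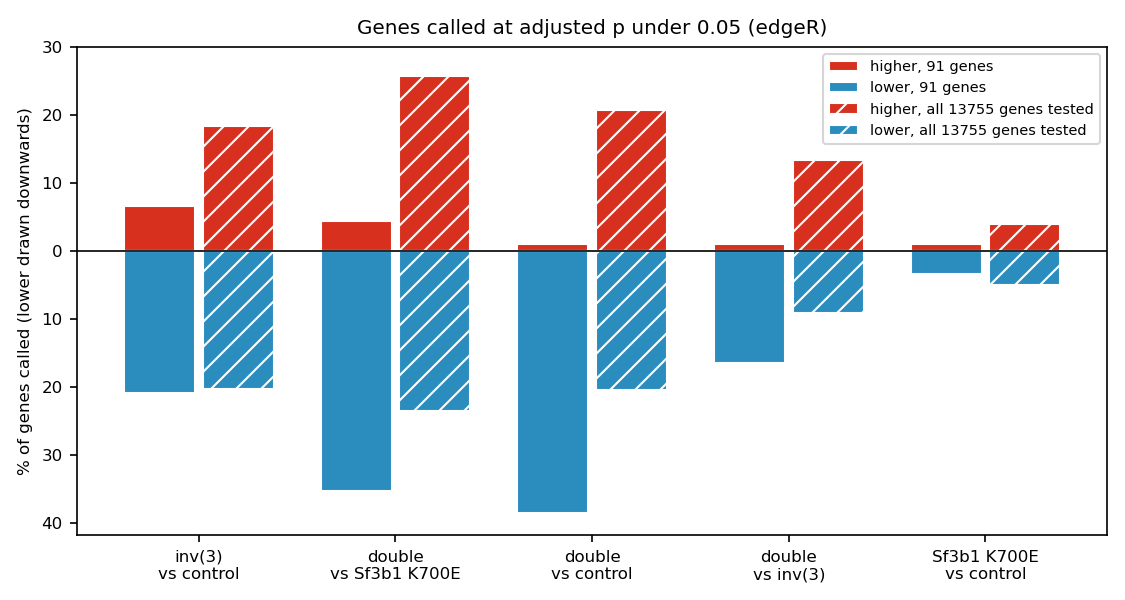
Percent of genes that rose (red, above 0) and fell (blue, drawn downwards from 0) in 5 comparisons, for the 91 respiratory chain genes (plain bars) and all 13755 genes tested (hatched bars). Falls among the 91 reach 38.5% in double over control and 3.3% in Sf3b1 K700E over control.

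Among the 36 complex I subunits, 14 fell and 0 rose in double over control, 8 fell and 3 rose in double over Sf3b1 K700E, 5 fell and 4 rose in inv(3) over control, and 6 fell in double over inv(3). The falls were 38.9%, 22.2%, 13.9% and 16.7% of the 36, against 20.4%, 23.5%, 20.3% and 9.13% of all genes. In double over Sf3b1 K700E and in inv(3) over control the share that fell was thus not above the background. Ndufs1 had 98.3, 105 and 105 CPM in the double group, 102, 99.3 and 101 in inv(3), 119, 134 and 131 in Sf3b1 K700E and 127, 119 and 114 in control. This large subunit carries iron-sulfur clusters that lead electrons away from the NADH site, and its 6 libraries with inv(3) lay below the 6 without. It fell by 0.32 ± 0.055 (adjusted p = 0.000552) in double over Sf3b1 K700E and by 0.25 ± 0.055 (adjusted p = 0.00341) in inv(3) over control. Ndufa9 had 72.9, 77.1 and 72.6 CPM in the double group, 77.8, 74.4 and 81.3 in inv(3), 89.5, 91.9 and 89.3 in Sf3b1 K700E and 92.3, 88.9 and 89.96 in control. Ndufa9, an accessory subunit, fell by 0.28 ± 0.041 (adjusted p = 0.000168) in double over Sf3b1 K700E and by 0.22 ± 0.041 (adjusted p = 0.00156) in inv(3) over control, again with no overlap between libraries with and without inv(3). The accessory subunits Ndufa10 and Ndufb9 fell in double over control (-0.23 ± 0.038, adjusted p = 0.000437, and -0.26 ± 0.040, adjusted p = 0.000319), and Ndufa10 fell by 0.23 ± 0.038 (adjusted p = 0.000575) in inv(3) over control.

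Ndufa5 had 23.5, 26.98 and 25.3 CPM in the double group, 28.3, 28.4 and 27.1 in inv(3), 30.98, 34.03 and 33.01 in Sf3b1 K700E and 33.05, 30.3 and 29.04 in control. Ndufa5, an accessory subunit of the matrix arm, fell by 0.37 ± 0.065 (adjusted p = 0.000588) in double over Sf3b1 K700E and by 0.28 ± 0.065 (adjusted p = 0.00426) in double over control, and inv(3) over control did not pass (-0.14 ± 0.065, adjusted p = 0.108).

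Ndufv3, a small accessory subunit at the NADH-oxidizing tip (chromosome 17, 31520115 to 31531331, GRCm38), went another way. Ndufv3 had 71.2, 84.99 and 79.2 CPM in the double group, 92.2, 95.1 and 93.9 in inv(3), 62.2, 63.4 and 67.3 in Sf3b1 K700E and 77.8, 80.2 and 75.7 in control. The inv(3) libraries stood above all others, the Sf3b1 K700E libraries stood below all others, and the double libraries overlapped control. Ndufv3 rose by 0.27 ± 0.058 (adjusted p = 0.00343) in inv(3) over control and by 0.29 ± 0.058 (adjusted p = 0.00156) in double over Sf3b1 K700E. It fell by 0.26 ± 0.058 (adjusted p = 0.00953) in double over inv(3) and by 0.28 ± 0.058 (adjusted p = 0.0167) in Sf3b1 K700E over control. The last call ended without control replicate 2 (-0.26, adjusted p = 0.081) or Sf3b1 K700E replicate 2 (-0.25, adjusted p = 0.1), and with effective length as an offset (-0.21, adjusted p = 0.051).

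Ndufb3 had 47.1, 55.9 and 49.6 CPM in the double group, 64.1, 64.95 and 61.1 in inv(3) and 58.3, 54.2 and 50.6 in control. Ndufb3, an accessory subunit of the membrane arm, fell by 0.32 ± 0.071 (adjusted p = 0.0091) in double over inv(3), the largest among the complex I subunits that passed there. Its call in inv(3) over control (0.22 ± 0.071, adjusted p = 0.0272) ended without control replicate 2 (0.22, adjusted p = 0.072), control replicate 3 (0.18, adjusted p = 0.091), inv(3) replicate 1 (0.21, adjusted p = 0.067) or inv(3) replicate 2 (0.20, adjusted p = 0.074). Ndufv1 had 89.8, 88.3 and 81.98 CPM in Sf3b1 K700E and 93.5, 99.7 and 105 in control. Ndufv1, which binds NADH and the flavin, was called lower in Sf3b1 K700E over control (-0.20 ± 0.054, adjusted p = 0.0435). That call ended in 14 alternatives, among them those without control replicate 2 (-0.20, adjusted p = 0.14), control replicate 3 (-0.13, adjusted p = 0.21), inv(3) replicate 3 (-0.20, adjusted p = 0.059), Sf3b1 K700E replicate 2 (-0.19, adjusted p = 0.16), Sf3b1 K700E replicate 3 (-0.14, adjusted p = 0.19), double replicate 2 (-0.20, adjusted p = 0.051) and double replicate 3 (-0.20, adjusted p = 0.056).

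The 7 complex I assembly factors help build the enzyme and do not stay in it. In double over Sf3b1 K700E 4 fell, in inv(3) over control 2 fell and 1 rose, in double over inv(3) 1 fell and 1 rose, and in double over control 0 passed by edgeR or DESeq2, with 1 at an unadjusted p under 0.05. Falls were 57.1%, 28.6% and 14.3% of the 7 in the first 3 of these, against 23.5%, 20.3% and 9.13% of all genes. Ndufaf4 had 36.1, 37.3 and 35.6 CPM in the double group, 32.1, 32.6 and 31.1 in inv(3), 43.2, 46.4 and 43.3 in Sf3b1 K700E and 38.6, 36.1 and 35.4 in control. The Sf3b1 K700E libraries lay above all others and the inv(3) libraries below all others. Ndufaf4, which acts early in assembly, rose by 0.27 ± 0.048 (adjusted p = 0.00853) in Sf3b1 K700E over control, a call that ended without control replicate 2 (0.26, adjusted p = 0.051). It fell by 0.20 ± 0.048 (adjusted p = 0.00655) in inv(3) over control and by 0.29 ± 0.048 (adjusted p = 0.000447) in double over Sf3b1 K700E. It was the 1 gene that rose in double over inv(3) (0.18 ± 0.048, adjusted p = 0.0186), a call that ended without inv(3) replicate 3 (0.16, adjusted p = 0.063), double replicate 1 (0.19, adjusted p = 0.051) or double replicate 2 (0.16, adjusted p = 0.05).

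Ndufaf7 had 20.5, 20.1 and 20.5 CPM in the double group, 19.2, 16.8 and 19.4 in inv(3), 22.8, 25.2 and 23.9 in Sf3b1 K700E and 22.5, 22.6 and 22.5 in control. Ndufaf7, a methyltransferase, fell by 0.29 ± 0.061 (adjusted p = 0.003) in inv(3) over control and by 0.23 ± 0.061 (adjusted p = 0.00812) in double over Sf3b1 K700E. Genes on the other strand cover 65.6% of the exons of Ndufaf2, so in unstranded libraries its call in double over Sf3b1 K700E (-0.27 ± 0.074, adjusted p = 0.0108) may include reads of another gene. Ndufaf1, another assembly factor, fell by 0.18 ± 0.056 (adjusted p = 0.0173) in double over Sf3b1 K700E, a call that ended without Sf3b1 K700E replicate 2 (-0.16, adjusted p = 0.056) or double replicate 1 (-0.16, adjusted p = 0.063). Ndufaf3 was called higher in inv(3) over control (0.30 ± 0.11, adjusted p = 0.0422), and the call ended without control replicate 1 (0.24, adjusted p = 0.14), control replicate 2 (0.34, adjusted p = 0.058), control replicate 3 (0.33, adjusted p = 0.065), inv(3) replicate 1 (0.33, adjusted p = 0.053), inv(3) replicate 2 (0.25, adjusted p = 0.13), inv(3) replicate 3 (0.32, adjusted p = 0.071) or double replicate 1 (0.30, adjusted p = 0.053).

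In complex II, which is also an enzyme of the tricarboxylic acid (TCA) cycle, 3 of 4 subunits fell in double over control, 3 in double over Sf3b1 K700E and 2 in inv(3) over control. Over all genes 20.4%, 23.5% and 20.3% fell. Sdha had 296, 302 and 301 CPM in the double group, 299.9, 273 and 301 in inv(3), 349, 368 and 358 in Sf3b1 K700E and 365, 351 and 354 in control. Sdha, the flavoprotein that oxidizes succinate (chromosome 13, 74322254 to 74350280, minus strand), showed a gap between the 6 libraries with inv(3) and the 6 without. It fell by 0.26 ± 0.043 (adjusted p = 0.000437) in double over Sf3b1 K700E and by 0.29 ± 0.043 (adjusted p = 0.000277) in inv(3) over control. The membrane anchor Sdhd fell by 0.20 ± 0.037 (adjusted p = 0.000969) in double over Sf3b1 K700E and by 0.16 ± 0.037 (adjusted p = 0.00473) in inv(3) over control. The other anchor, Sdhc, fell by 0.18 ± 0.036 (adjusted p = 0.00147) in double over Sf3b1 K700E, and inv(3) over control did not pass (-0.09 ± 0.036, adjusted p = 0.0793).

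Sdhb had 67.6, 60.8 and 60.5 CPM in the double group, 57.4, 57.6 and 59.9 in inv(3), 74.4, 67.5 and 64.6 in Sf3b1 K700E and 61.5, 65.8 and 66.7 in control. Sdhb passed in no comparison, and its double, Sf3b1 K700E and control libraries overlapped. Of the 4 Sdhaf factors 0 passed by edgeR in the 5 comparisons, with 1 at an unadjusted p under 0.05 in each of the 3 comparisons of inv(3) over control, double over control and double over Sf3b1 K700E, and DESeq2 called 1 in the last of these.

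Of the 8 complex III subunits, 37.5% fell in double over control, 25% in double over Sf3b1 K700E and 25% in inv(3) over control. Over all genes 20.4%, 23.5% and 20.3% fell. The calls in complex III were on its large subunits. Of these 3 large subunits, the core proteins Uqcrc1 and Uqcrc2 and the Rieske protein Uqcrfs1, 3 fell in double over control, 2 in double over Sf3b1 K700E, 2 in inv(3) over control, 1 in double over inv(3) and 1 in Sf3b1 K700E over control. Of its 5 small subunits 0 passed by edgeR in any comparison, with 1 at an unadjusted p under 0.05 in inv(3) over control and 1 in double over Sf3b1 K700E, which DESeq2 called. Medians in double over control were -0.112 for the small and -0.212 for the large subunits. In inv(3) over control the SE was 0.224 for Uqcrq, 0.172 for Uqcr11 and 0.119 for Uqcr10. It was 0.065 for Uqcrb, 0.048 for Uqcrh and 0.045 to 0.058 for the large subunits. A change of equal size is thus harder to call in Uqcrq, Uqcr11 and Uqcr10. Uqcrfs1 had 74.2, 70.1 and 68.1 CPM in the double group, 70.6, 78.1 and 76.98 in inv(3), 85.4, 85.6 and 84.6 in Sf3b1 K700E and 87.5, 85.8 and 88.6 in control. Every library with inv(3) was below every library without it. Uqcrfs1 fell by 0.27 ± 0.045 (adjusted p = 0.000498) in double over Sf3b1 K700E and by 0.21 ± 0.045 (adjusted p = 0.00295) in inv(3) over control. Uqcrc2, of whose exons 19.7% overlap a gene on the other strand, fell by 0.20 ± 0.051 (adjusted p = 0.00702) and by 0.22 ± 0.051 (adjusted p = 0.00515) in the same comparisons.

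Uqcrc1 had 233, 245 and 223 CPM in the double group, 256, 274 and 267 in inv(3), 239.8, 211 and 217 in Sf3b1 K700E and 247, 270.3 and 268 in control. Each double and Sf3b1 K700E library was below the lowest control library. Uqcrc1 was called lower in Sf3b1 K700E over control (-0.23 ± 0.058, adjusted p = 0.0303), a call that ended without control replicate 2 (-0.21, adjusted p = 0.13), control replicate 3 (-0.20, adjusted p = 0.12), Sf3b1 K700E replicate 2 (-0.18, adjusted p = 0.19) or Sf3b1 K700E replicate 3 (-0.19, adjusted p = 0.1). It was called lower in double over control (-0.16 ± 0.058, adjusted p = 0.0397), which ended without control replicate 2 (-0.14, adjusted p = 0.12), control replicate 3 (-0.14, adjusted p = 0.12), double replicate 1 (-0.16, adjusted p = 0.086) or double replicate 3 (-0.14, adjusted p = 0.14). In double over inv(3) (-0.19 ± 0.058, adjusted p = 0.0379) the call ended without control replicate 2 (-0.19, adjusted p = 0.05), inv(3) replicate 2 (-0.17, adjusted p = 0.11), inv(3) replicate 3 (-0.19, adjusted p = 0.083), double replicate 1 (-0.19, adjusted p = 0.099) or double replicate 3 (-0.16, adjusted p = 0.15).

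Complex IV held the largest called changes in both directions in double over Sf3b1 K700E. Of its 15 subunits, 6 fell and 1 rose in double over control, 6 fell and 1 rose in double over Sf3b1 K700E, 4 fell and 1 rose in inv(3) over control, and 4 fell in double over inv(3). The falls were 40%, 40%, 26.7% and 26.7% of the 15, against 20.4%, 23.5%, 20.3% and 9.13% of all genes. Ndufa4 had 126, 139 and 133 CPM in the double group, 145, 132 and 150.3 in inv(3), 181, 183 and 184 in Sf3b1 K700E and 182, 180.5 and 171 in control. Ndufa4 (chromosome 6, 11900292 to 11907497, minus strand) was lower in each library with inv(3) than in any without. It fell by 0.46 ± 0.054 (adjusted p = 3.18e-05) in double over Sf3b1 K700E, by 0.42 ± 0.054 (adjusted p = 7.66e-05) in double over control and by 0.32 ± 0.054 (adjusted p = 0.000704) in inv(3) over control.

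Cox5a had 86.7, 94.7 and 86.1 CPM in the double group, 98.8, 97.4 and 104 in inv(3), 117, 124 and 120.4 in Sf3b1 K700E and 128, 119 and 115 in control. Cox5a, a matrix-side subunit (chromosome 9, 57521274 to 57532426), was lowest in the double group, with inv(3) between it and the groups without the allele. It fell by 0.43 ± 0.052 (adjusted p = 3.86e-05) in double over Sf3b1 K700E, by 0.43 ± 0.052 (adjusted p = 4.76e-05) in double over control and by 0.27 ± 0.052 (adjusted p = 0.00158) in inv(3) over control. Its call in double over inv(3) (-0.17 ± 0.052, adjusted p = 0.04) ended without control replicate 2 (-0.17, adjusted p = 0.057), inv(3) replicate 1 (-0.18, adjusted p = 0.061), inv(3) replicate 2 (-0.19, adjusted p = 0.059), inv(3) replicate 3 (-0.14, adjusted p = 0.12), double replicate 1 (-0.15, adjusted p = 0.13) or double replicate 3 (-0.14, adjusted p = 0.15). A gene on the other strand covers 12.8% of its exons.

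Cox7a2 had 82.3, 91.8 and 82.9 CPM in the double group, 98.8, 97.9 and 103 in inv(3), 90.7, 94.8 and 94.2 in Sf3b1 K700E and 104, 98.04 and 95.5 in control. Cox7a2, a member of the Cox7a family, fell by 0.22 ± 0.050 (adjusted p = 0.0097) in double over inv(3), a call that ended without double replicate 3 (-0.20, adjusted p = 0.05), and by 0.21 ± 0.050 (adjusted p = 0.00531) in double over control. Cox5b, which binds zinc, fell in double over control (-0.27 ± 0.052, adjusted p = 0.0014). Its call in inv(3) over control (-0.16 ± 0.052, adjusted p = 0.0292) ended without control replicate 2 (-0.13, adjusted p = 0.12) or inv(3) replicate 2 (-0.11, adjusted p = 0.12). In double over Sf3b1 K700E it was called lower (-0.15 ± 0.052, adjusted p = 0.0299), which ended without Sf3b1 K700E replicate 1 (-0.14, adjusted p = 0.077), double replicate 1 (-0.15, adjusted p = 0.08), double replicate 2 (-0.16, adjusted p = 0.058) or double replicate 3 (-0.16, adjusted p = 0.06). Cox4i1 and Cox6a1 passed in no comparison.

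Cox6b2, the form of subunit 6b known from testis (chromosome 7, 4751792 to 4753094, minus strand), rose. Cox6b2 had 27.3, 24.7 and 26.2 CPM in the double group, 21.01, 26.02 and 25.5 in inv(3), 20.9, 16.8 and 16.8 in Sf3b1 K700E and 15.5, 17.4 and 16.4 in control. The 6 libraries with inv(3) lay above the 6 without, by a narrow margin between inv(3) replicate 1 and Sf3b1 K700E replicate 1. It rose by 0.67 ± 0.10 (adjusted p = 0.000277) in double over control, by 0.52 ± 0.10 (adjusted p = 0.00116) in double over Sf3b1 K700E and by 0.56 ± 0.10 (adjusted p = 0.00108) in inv(3) over control. Of the summed TPM of Cox6b1 and Cox6b2 it gave 13.6% to 15.5% in the double group, 11.6% to 15.6% with inv(3) alone, 9.29% to 11.4% with Sf3b1 K700E alone and 8.59% to 9.58% in control. Cox6b1, the common form, passed in no comparison.

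**Figure D3:**
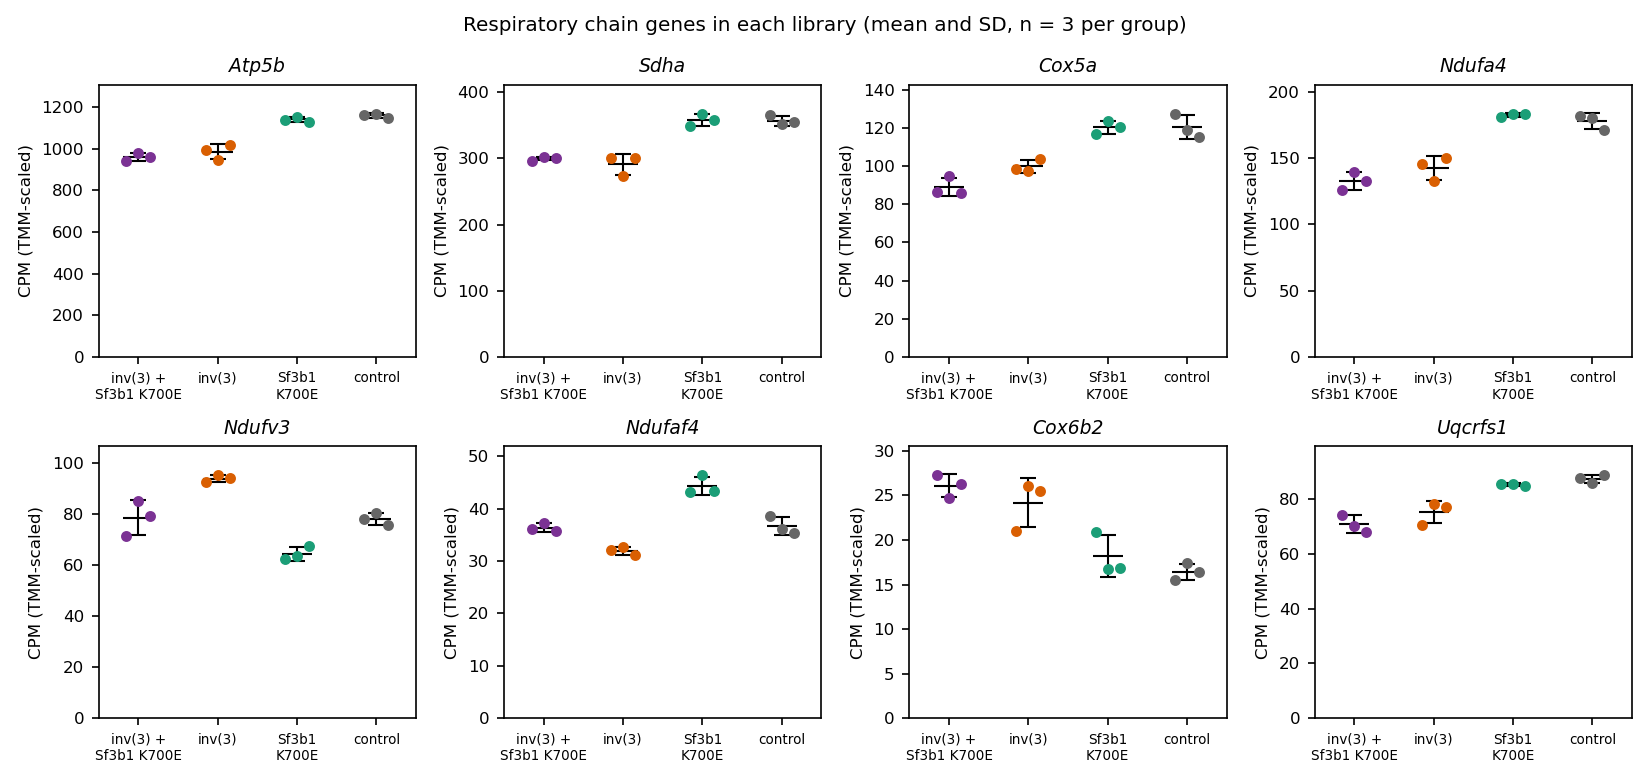
TMM-scaled CPM (y axes, from 0) of 8 genes in each library, with group means and SDs as black marks (n = 3 per group); inv(3) + Sf3b1 K700E is the double group. Atp5b, Sdha, Cox5a, Ndufa4 and Uqcrfs1 are lower and Cox6b2 is higher in both groups with inv(3), while Ndufv3 is highest and Ndufaf4 lowest in inv(3) alone.

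In complex V, 9 of 15 subunits fell and 0 rose in double over control, as in double over Sf3b1 K700E, 4 fell in inv(3) over control and 3 in double over inv(3). These are 60%, 60%, 26.7% and 20% of the 15, against 20.4%, 23.5%, 20.3% and 9.13% of all genes. Atp5b had 942, 978 and 959.7 CPM in the double group, 995, 946 and 1017 in inv(3), 1138, 1154 and 1130 in Sf3b1 K700E and 1164, 1168 and 1147 in control. Atp5b (chromosome 10, 128083273 to 128090391) was lower in each library with inv(3) than in any without. It fell by 0.27 ± 0.035 (adjusted p = 9.24e-05) in double over control, by 0.25 ± 0.035 (adjusted p = 0.000136) in double over Sf3b1 K700E and by 0.23 ± 0.035 (adjusted p = 0.000325) in inv(3) over control. Atp5a1, the alpha subunit that alternates with beta in the head, fell by 0.21 ± 0.035 (adjusted p = 0.000586) in inv(3) over control.

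By part of the enzyme, 3 of 5 head and central stalk subunits, 3 of 4 peripheral stalk subunits, 2 of 3 genes of the proton-carrying c-ring and 1 of 3 other membrane subunits fell in double over control, and equal numbers did in double over Sf3b1 K700E. Atp5o had 127, 127 and 127 CPM in the double group, 138, 118 and 139 in inv(3), 157, 154 and 149 in Sf3b1 K700E and 158, 162 and 157 in control. Atp5o, which ties the peripheral stalk to the head, fell by 0.27 ± 0.056 (adjusted p = 0.0018) in double over Sf3b1 K700E and by 0.27 ± 0.056 (adjusted p = 0.00248) in inv(3) over control. Genes on the other strand cover 35.6% of its exons, so part of its reads may be theirs. Atp5k, a small membrane subunit, fell by 0.21 ± 0.060 (adjusted p = 0.0131) in double over Sf3b1 K700E, a call that ended without double replicate 3 (-0.15, adjusted p = 0.059).

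The 3 c-ring genes encode the same mature protein. Atp5g3 had 131, 125 and 117 CPM in the double group, 132, 149 and 137 in inv(3), 161, 158 and 149.9 in Sf3b1 K700E and 156, 158 and 157 in control. Atp5g3 fell by 0.33 ± 0.055 (adjusted p = 0.000408) in double over Sf3b1 K700E and by 0.33 ± 0.055 (adjusted p = 0.000476) in double over control. Its call in inv(3) over control (-0.17 ± 0.054, adjusted p = 0.0264) ended without control replicate 2 (-0.17, adjusted p = 0.066), control replicate 3 (-0.16, adjusted p = 0.09), inv(3) replicate 1 (-0.14, adjusted p = 0.09), inv(3) replicate 3 (-0.16, adjusted p = 0.074) or Sf3b1 K700E replicate 2 (-0.16, adjusted p = 0.053). Atp5g1 fell by 0.27 ± 0.064 (adjusted p = 0.00538) in double over control, and Atp5g2 passed in no comparison. Of the summed TPM of the 3 genes, Atp5g2 gave 49.5% ± 0.6 in the double group, 48.5% ± 1.1 in inv(3), 44.6% ± 1.0 in Sf3b1 K700E and 44.9% ± 0.59 in control.

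Each of the other calls in double over inv(3) given here ended when some single library was left out. Ndufs5, an accessory subunit of complex I, was called lower (-0.21 ± 0.050, adjusted p = 0.0138), and the call ended without double replicate 1 (-0.20, adjusted p = 0.052) or double replicate 3 (-0.17, adjusted p = 0.064). Ndufaf3, an assembly factor, was called lower (-0.36 ± 0.11, adjusted p = 0.0321), which ended without inv(3) replicate 2 (-0.31, adjusted p = 0.1), inv(3) replicate 3 (-0.38, adjusted p = 0.058), double replicate 1 (-0.33, adjusted p = 0.11) or double replicate 3 (-0.30, adjusted p = 0.13). Atp5j, a peripheral stalk subunit of the ATP synthase, was called lower (-0.17 ± 0.043, adjusted p = 0.0174), which ended without inv(3) replicate 2 (-0.16, adjusted p = 0.062), double replicate 1 (-0.17, adjusted p = 0.052) or double replicate 3 (-0.15, adjusted p = 0.076). For Atp5e, the epsilon subunit of the central stalk (-0.19 ± 0.058, adjusted p = 0.0358), the call ended without control replicate 2 (-0.19, adjusted p = 0.052), inv(3) replicate 2 (-0.15, adjusted p = 0.13), inv(3) replicate 3 (-0.19, adjusted p = 0.08), double replicate 1 (-0.20, adjusted p = 0.083) or double replicate 3 (-0.17, adjusted p = 0.13). For Cox7c, a small membrane subunit of complex IV (-0.14 ± 0.044, adjusted p = 0.0388), it ended without control replicate 2 (-0.14, adjusted p = 0.056), inv(3) replicate 2 (-0.10, adjusted p = 0.17), double replicate 1 (-0.15, adjusted p = 0.088) or double replicate 3 (-0.11, adjusted p = 0.15). For Ndufb10, an accessory subunit of the membrane arm of complex I (-0.19 ± 0.059, adjusted p = 0.04), it ended without control replicate 2 (-0.19, adjusted p = 0.054), inv(3) replicate 2 (-0.15, adjusted p = 0.14), inv(3) replicate 3 (-0.20, adjusted p = 0.065), double replicate 1 (-0.22, adjusted p = 0.056), double replicate 2 (-0.19, adjusted p = 0.065) or double replicate 3 (-0.16, adjusted p = 0.15). For Atp5f1, the b subunit of the peripheral stalk (-0.10 ± 0.032, adjusted p = 0.0358), it ended without control replicate 2 (-0.11, adjusted p = 0.054), inv(3) replicate 1 (-0.11, adjusted p = 0.054), inv(3) replicate 2 (-0.11, adjusted p = 0.079), inv(3) replicate 3 (-0.10, adjusted p = 0.085), double replicate 1 (-0.11, adjusted p = 0.088) or double replicate 3 (-0.10, adjusted p = 0.1). The call of Cox6c, a further membrane subunit of complex IV (-0.11 ± 0.037, adjusted p = 0.0497), ended without control replicate 1 (-0.11, adjusted p = 0.056), control replicate 2 (-0.11, adjusted p = 0.071), control replicate 3 (-0.12, adjusted p = 0.057), inv(3) replicate 2 (-0.10, adjusted p = 0.16), inv(3) replicate 3 (-0.11, adjusted p = 0.12), Sf3b1 K700E replicate 2 (-0.12, adjusted p = 0.056), Sf3b1 K700E replicate 3 (-0.12, adjusted p = 0.055), double replicate 1 (-0.11, adjusted p = 0.12) or double replicate 3 (-0.09, adjusted p = 0.19).

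Groups with and without inv(3) were set against each other in 2 comparisons that share no library, double over Sf3b1 K700E and inv(3) over control. Both come from the same fit over all 4 groups, so their estimates of spread are shared. In inv(3) over control the allele cannot be told apart from the difference in Y-linked reads given above. In both comparisons 18 of the 91 genes fell. They are 56.2% of the 32 that fell in the first and 94.7% of the 19 in the second. Over all genes these shares were 66.2% and 76.5%. Of the genes that rose, 3 did so in both (of 4 and of 6), and 0 passed in opposite directions. The 18 include subunits of each complex, with Ndufs1, Sdha, Sdhd, Uqcrc2, Uqcrfs1, Ndufa4, Cox5a, Atp5a1, Atp5b and Atp5o among them.

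**Figure D4:**
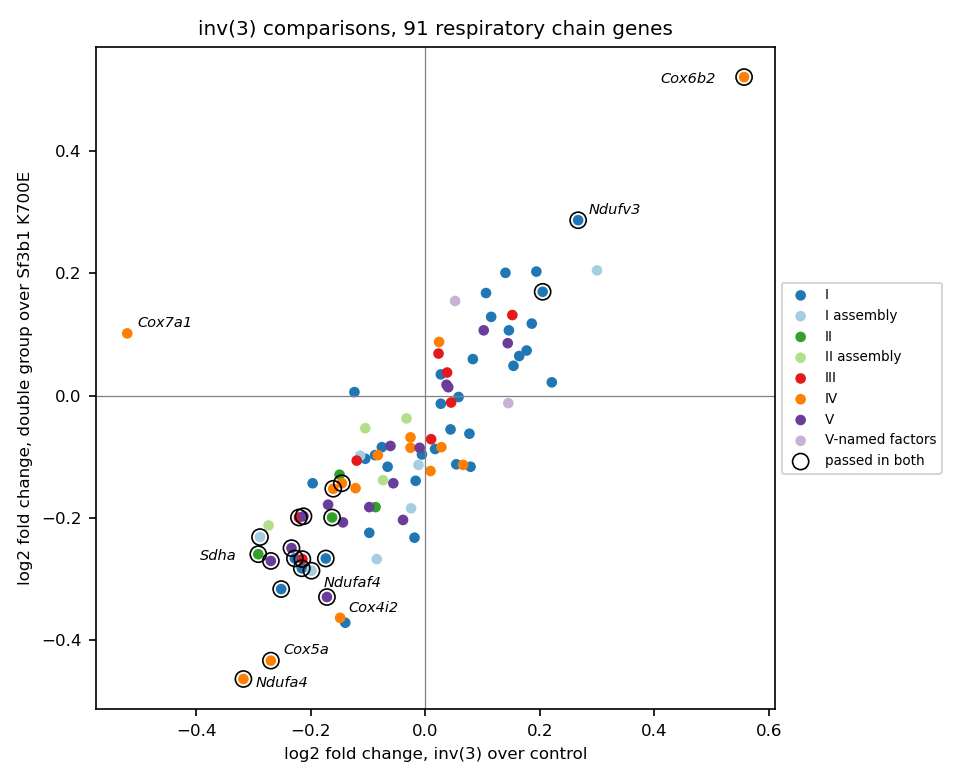
Log2 fold change of each of the 91 genes in the double group over Sf3b1 K700E (y axis) against inv(3) over control (x axis), coloured by complex, with rings around the genes that passed in both. Ndufa4 and Cox5a lie lowest on the y axis, Cox6b2 lies highest on both, and the low-level genes Cox7a1 and Cox4i2 carry no ring.

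Falls with inv(3) were also counted by transcript length. Of 45 genes longer than their median of 717 bases, 21 fell in double over Sf3b1 K700E and 14 in inv(3) over control, which is 46.7% and 31.1%, while 23.7% and 20.7% of all genes over that length fell. Of 46 genes at or under it 11 and 5 fell, which is 23.9% and 10.9%, while 17.8% and 10.9% of all genes of such length fell. The short genes thus matched that background in inv(3) over control, and over all genes too falls were less common among short ones. Across the 91 genes Spearman's rho between length and log2 fold change was -0.27 in double over Sf3b1 K700E and -0.34 in inv(3) over control, while over all 13755 genes it was 0.0 and -0.08. In double over inv(3) rho was 0.41 over the 91 and 0.18 over all genes. These values are across genes of the same libraries and carry no test. Fragment length, read as the median gap between length and effective length, was 165 to 166 bases in the double group, 163 to 177 with inv(3) alone, 163 to 167 with Sf3b1 K700E alone and 164 to 169 in control, and its part in these relations was not tested.

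**Figure D5:**
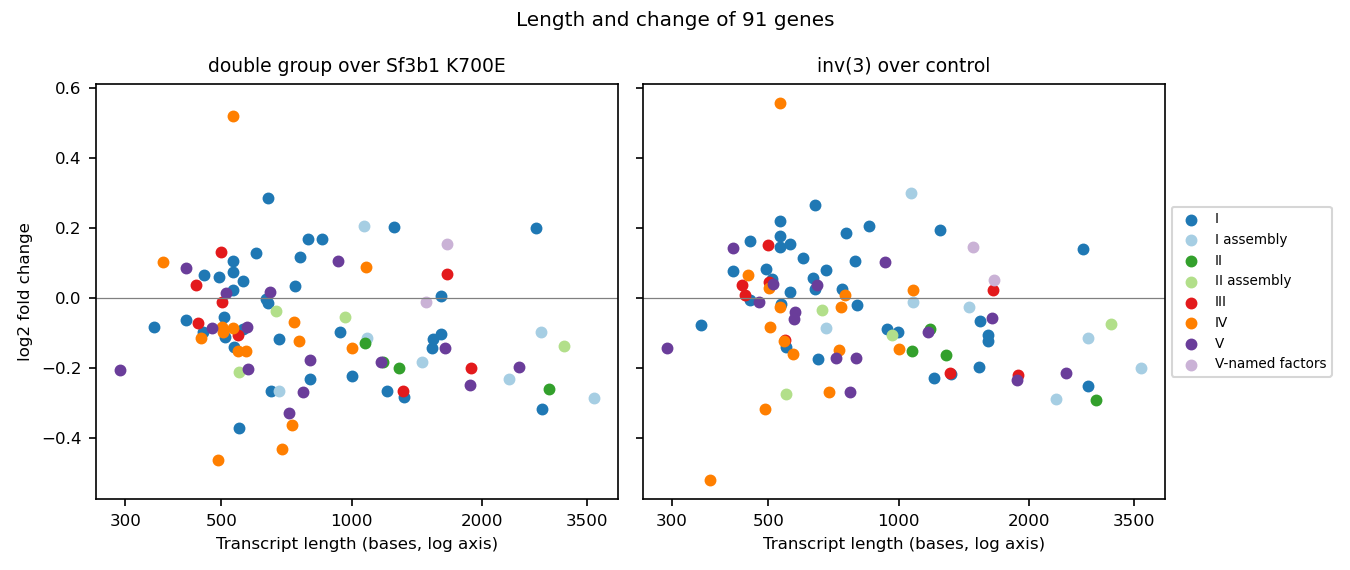
Log2 fold change of each of the 91 genes (y axes) against transcript length in bases (log x axes), coloured by complex, in the double group over Sf3b1 K700E (left) and in inv(3) over control (right). Of the genes longer than the median of 717 bases 21 (left) and 14 (right) fell, with rho over all 91 of -0.27 (left) and -0.34 (right).

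The mean transcript length that the tables give per gene moves when isoform use moves, and it could be tested in 15 of the 91 genes. By limma 0 of the 15 passed in any comparison, against 0.57% of 3335 genes in inv(3) over control, 0.09% in Sf3b1 K700E over control, 0.93% in double over control, 0.03% in double over inv(3), 1.62% in double over Sf3b1 K700E and 0.0% in the interaction. Unadjusted p was under 0.05 for 2, 1, 1, 0, 4 and 0 of the 15 in the same order. The lowest adjusted p, 0.0614, was that of Ndufv3 in double over Sf3b1 K700E. Its mean length was 645, 638 and 647 bases in the double group, 648, 667 and 653 in inv(3), 613, 606 and 619.9 in Sf3b1 K700E and 643, 624 and 635 in control. All Sf3b1 K700E libraries were below the other 9, and without inv(3) replicate 2 the number that passed in double over Sf3b1 K700E was 1.

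A further pattern lay inside the groups. The 20 genes with the largest spread inside groups among those averaging 5 CPM or more, chosen after their values were seen, mostly varied together. Uqcrq, a small complex III subunit, led them with an SD of 0.312 log2 units, followed by Ndufs7 (0.274) and Uqcr11 (0.241). Uqcrq had 48.8, 40.4 and 36.8 CPM in the double group, 44.6, 68.2 and 44.2 in inv(3), 50.2, 31.9 and 32.8 in Sf3b1 K700E and 36.6, 50.05 and 54.5 in control. The libraries named next, and whether high or low was counted, were also chosen after the values were seen. Double replicate 1 was the highest of its group for 16 of the 20, inv(3) replicate 2 for 17 and Sf3b1 K700E replicate 1 for 17, and control replicate 1 was the lowest for 17. The 20 thus gave shares of 80%, 85%, 85% and 85%, against 26.8%, 42.3%, 45.1% and 28.2% in the other 71 genes and 36.4%, 36.4%, 37.9% and 41.8% over all genes tested. Inv(3) replicate 2 also had the longest fragments, 176.9 bases against 162.6 to 169.3 in the other libraries. The source of the pattern was not tested.

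Genes that feed or build the chain, in lists chosen with earlier results known, are given beside it. For all these lists, the background over all genes was 20.4% falls and 20.8% rises in double over control. It was 23.5% and 25.7% in double over Sf3b1 K700E, 20.3% and 18.4% in inv(3) over control, and 4.9% and 3.94% in Sf3b1 K700E over control. Of 18 genes of the TCA cycle and pyruvate dehydrogenase, 10 fell and 1 rose in double over control, 10 fell and 1 rose in double over Sf3b1 K700E, 10 fell and 0 rose in inv(3) over control, and 0 fell and 1 rose in Sf3b1 K700E over control. Fh1 averaged 75.6 ± 1.33 CPM in the double group, 75.5 ± 3.74 in inv(3), 101 ± 3.33 in Sf3b1 K700E and 94.8 ± 2.49 in control (SD, n = 3 each, as for the other genes of these lists). Fh1, fumarate hydratase, fell by 0.41 ± 0.044 (adjusted p = 1.59e-05) in double over Sf3b1 K700E and by 0.33 ± 0.044 (adjusted p = 0.000133) in inv(3) over control. Pdha1, a subunit of pyruvate dehydrogenase, fell by 0.30 ± 0.045 (adjusted p = 0.000337) in inv(3) over control, and Dlat, another, fell by 0.26 ± 0.044 (adjusted p = 0.000444) in double over Sf3b1 K700E.

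Of 16 genes of electron carriers and other entry points, 7 fell and 1 rose in double over control, 7 fell and 2 rose in double over Sf3b1 K700E, and 3 fell and 1 rose in inv(3) over control. Cycs averaged 176 ± 12.4 CPM in the double group, 189.8 ± 3.92 in inv(3), 239 ± 13.6 in Sf3b1 K700E and 230.5 ± 15.3 in control. Cycs, cytochrome c, fell by 0.44 ± 0.063 (adjusted p = 0.000152) in double over Sf3b1 K700E. Pdss1, which makes the ubiquinone side chain, fell by 0.54 ± 0.073 (adjusted p = 9.78e-05) in the same comparison. Etfb, a subunit of the electron transfer flavoprotein of fatty acid oxidation, rose by 0.40 ± 0.065 (adjusted p = 0.000348) there and by 0.38 ± 0.065 (adjusted p = 0.000808) in inv(3) over control.

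Among chain and assembly genes outside the symbol rule, Cyc1 averaged 102 ± 4.39 CPM in the double group, 108 ± 2.1 in inv(3), 115 ± 6.31 in Sf3b1 K700E and 124 ± 2.7 in control. Cyc1, the cytochrome c1 of complex III, fell by 0.28 ± 0.048 (adjusted p = 0.00058) in double over control. Of 21 complex IV assembly factors 3 fell and 0 rose in double over control, 3 fell and 3 rose in double over Sf3b1 K700E, and 2 fell and 4 rose in inv(3) over control. In each of these comparisons a smaller share of these factors fell than of all genes. Of 9 further complex I assembly factors, 2 fell in double over control, 3 in double over Sf3b1 K700E and 2 in inv(3) over control, and 0 rose. Of 6 ATP synthase factors 3, 4 and 2 fell in the same comparisons and 0 rose. Not all of these calls were stable. In inv(3) over control the call of 1 ATP synthase factor ended in 15 alternatives. There the call of 1 complex I assembly factor ended in 18.

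Of 13 genes that copy, read or stabilize mitochondrial DNA and its RNA, 2 fell in double over control, 6 in double over Sf3b1 K700E and 4 in inv(3) over control, and 0 rose. In double over control this share of falls was below that of all genes. Lrpprc averaged 99.8 ± 2.86 CPM in the double group, 96.2 ± 4.13 in inv(3), 125 ± 4.92 in Sf3b1 K700E and 121 ± 4.82 in control. Lrpprc, which stabilizes mitochondrial messenger RNAs, fell by 0.33 ± 0.048 (adjusted p = 0.000173) in double over Sf3b1 K700E and by 0.33 ± 0.048 (adjusted p = 0.000253) in inv(3) over control. Of 11 transcription factors of mitochondrial biogenesis 1 rose in double over control, 1 fell in double over Sf3b1 K700E and 1 fell in inv(3) over control. In double over inv(3) 3 of them rose and 0 fell, where 13.4% of all genes rose and 9.13% fell. All 3 of these calls ended without double replicate 3. Counting every alternative, they ended in 2, 9 and 11. Ppargc1b averaged 4.35 ± 1.04 CPM in the double group, 2.48 ± 0.767 in inv(3), 7.21 ± 1.92 in Sf3b1 K700E and 6.04 ± 0.86 in control. Ppargc1b, a coactivator of respiratory genes, fell by 1.28 ± 0.26 (adjusted p = 0.00245) in inv(3) over control.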

How the data were processed

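RNA of 12 mouse libraries, 3 in each of 4 groups named by the labels, was poly(A)-selected and sequenced without strand information, per the labels' protocols. The deposited gene tables have, per the file headers, an expected count (the authors' estimate of fragments per gene, not normalized), TPM, transcript length and effective length. The submitters' processing notes name bcl2fastq and mm10. The aligner and tool versions were not given in the sources used here.

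For the tests, expected counts were rounded to whole numbers. filterByExpr by group kept 13755 of 24411 genes. The main model was a quasi-likelihood fit over all 4 groups after TMM scaling (edgeR 4.0.16 under R 4.3.3), with 5 comparisons of groups and the interaction. Tests are two-sided, Benjamini-Hochberg adjustment runs over all genes tested, the limit is 0.05, and SEs come from the F statistic. TPM was used for levels and sums without a test. Length was tested with limma 3.58.1 on the log2 scale in 3335 genes that had 50 or more expected counts in each library. Places and exon overlaps are from a GRCm38 annotation, the assembly of mm10. Reads shared between gene copies were split by the authors' estimation, and 3 of the 91 genes had fractional counts. The fitting code was tested on simulated data.

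In each comparison, the genes named are up to 4 of each complex or assembly group with the largest change among those that passed. Isoform families, complex II subunits, the highest and lowest genes of each complex and up to 3 genes of smallest p per outside list are also named, and other names were chosen after their values were seen. The result of 1 gene is not reported here by name. The genes and lists were chosen with earlier results of these data known. Alternatives were RLE scaling, TMM without the 50 most abundant genes, no count filter, only genes averaging 5 CPM, DESeq2 1.42.0, limma-voom, fits of 2 groups, the replicate number as a block, effective length as an offset, autosomal genes, the 9 libraries outside the inv(3) group, leaving out each library, and a mean TPM minimum of 5 or none for the 91. For length they were effective length and a minimum of 200 counts.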

Additional observations from a re-analysis of the deposited data

How the results depend on the processing

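Of 76 results for single respiratory chain genes, 52 kept their direction and their side of the limit under every alternative run. Of 1715 repeats 1583 did so, 132 lost the call, 97 of them when a library was left out, and 0 changed direction. No scaling moved the median of all genes by over 0.1, but the medians of the 91 are themselves about that small. With TMM without the 50 most abundant genes, the median of the 91 was -0.014 in inv(3) over control, against -0.026 in the main fit. In Sf3b1 K700E over control it was -0.015 against -0.036, and in double over control -0.125 against -0.124. It was -0.106 against -0.093 in double over inv(3), and -0.119 against -0.097 in double over Sf3b1 K700E. With DESeq2, 24 of the 91 genes fell in double over inv(3), 1866 genes changed in Sf3b1 K700E over control and 622 in the interaction. With the compared groups alone, 1 of the 91 fell in Sf3b1 K700E over control and 7 in double over inv(3), 2 rose in double over Sf3b1 K700E, and 1954 genes changed in double over inv(3), where fewer samples entered. Among genes averaging 5 CPM, 1 of the 91 fell in Sf3b1 K700E over control and 2 rose in double over Sf3b1 K700E. That last number was also 2 with TMM without the 50 most abundant genes and with autosomal genes alone. The cause was not tested.

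Replicate numbers did not pair the samples. Libraries with the same number correlated at -0.379 to 0.27 (median -0.002, 3 of 18 pairs over 0.1), and those with different numbers at -0.215 to 0.401 (8 of 36 pairs over 0.1). With the number as a block, 1 of the 91 fell in Sf3b1 K700E over control and 8 in double over inv(3), 2 rose in double over Sf3b1 K700E, and 654 genes changed in Sf3b1 K700E over control and 60 in the interaction.

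With each library left out in turn, the falls among the 91 numbered 27 to 39 in double over control, 25 to 37 in double over Sf3b1 K700E, 2 to 20 in double over inv(3), 16 to 22 in inv(3) over control and 0 to 7 in Sf3b1 K700E over control. The rises numbered 1, 2 to 10, 0 to 1, 2 to 7 and 0 to 1 in the same order, and the interaction gave 0. Over all genes the counts were 4433 to 5964, 5506 to 7138, 1566 to 3342, 4359 to 5564 and 168 to 1649 in that order, and 32 to 323 in the interaction. Length calls among the 91 numbered 0 to 1 in double over Sf3b1 K700E and 0 elsewhere. Precision was limited by 3 libraries per group and by spread inside groups, whose coefficient of variation, averaged over the 4 groups, reached 24.6% for 1 gene.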
